A study of Mus musculus with 13 samples.

Results

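The c-myc bait junctions described here are those whose prey lay on a chromosome other than 15 and whose gene field in the deposited tables held the placeholder NA, called unlabelled junctions below. There were 731 of them among 1729 junctions on other chromosomes, the remaining 998 carrying a gene label, and among 9577 junctions of the c-myc libraries and 16455 of the whole series. High-throughput genome-wide translocation sequencing (HTGTS) cuts 1 fixed site, the bait, with the nuclease I-SceI and reads whatever DNA, the prey, was joined to it. The B-cell group was activated splenic B cells of genotype c-myc25-2xI, stimulated with anti-CD40 and IL-4, in 3 libraries numbered 14, 36 and 37. The fibroblast group was tail fibroblasts transformed with SV40, of genotype c-myc25xI;RosaI-SceI-GR, without activation, in 4 libraries numbered 1 to 4. All 7 libraries thus shared a cassette of I-SceI sites at c-myc on chromosome 15, while cell type, cassette, nuclease supply and sequencing run changed together between the groups and cannot be told apart. The labels do not say whether libraries of a group came from separate mice or cultures, so p-values measure the spread between libraries only, which may be technical.

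Broken ends in a nucleus are mostly rejoined locally, and a smaller part joins DNA elsewhere, often at places that break on their own. In activated B cells the known example is the immunoglobulin heavy chain locus (IgH), where the enzyme AID starts breaks in the repetitive switch regions that lie before each constant gene. Joins between IgH and c-myc of this kind are the hallmark of Burkitt lymphoma and mouse plasmacytoma. Junctions without a gene label have no gene name to go by, so position, strand, neighbours and the sequence itself are what can be read from them. The NA entries were not checked against a gene annotation of mm9. Unlabelled therefore does not mean outside genes, and some of these junctions lie in sequence of genes, as described below.

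Sequences are shown first for the places to which the results return. The first set is from IgH, where 10 unlabelled junctions formed the only 2 clusters found, all from B cells. Each is the mm9 plus strand of the aligned prey, and the capitals mark the 10 bases at the junction.
B-cell library 14, minus strand, chr12:114666715-114666758: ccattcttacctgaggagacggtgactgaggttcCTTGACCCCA
B-cell library 37, minus strand, chr12:114666398-114666471: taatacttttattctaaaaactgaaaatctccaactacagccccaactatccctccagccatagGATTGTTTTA
B-cell library 36, minus strand, chr12:114664963-114665017: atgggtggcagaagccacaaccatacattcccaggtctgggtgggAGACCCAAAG
B-cell library 36, minus strand, chr12:114577084-114577214: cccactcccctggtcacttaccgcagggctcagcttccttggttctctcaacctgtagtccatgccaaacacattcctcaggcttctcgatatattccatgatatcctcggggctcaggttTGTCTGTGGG
The first of these reads, on its complement, as the end of the fourth heavy chain joining segment (JH4) with its splice donor.

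The second set is from 4 of the 5 closest pairs from different libraries outside IgH, shown because their sequence is of kinds that occur more than once in the genome. In the chromosome 17 pair the capitals mark the 20 bases that both prey share.
Fibroblast library 3, minus strand, chr17:39983060-39983166: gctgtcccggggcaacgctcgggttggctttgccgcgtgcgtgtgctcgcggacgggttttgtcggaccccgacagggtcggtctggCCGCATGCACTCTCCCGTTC
B-cell library 14, minus strand, chr17:39983147-39983184: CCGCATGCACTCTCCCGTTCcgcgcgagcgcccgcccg
On chromosome X, the prey at 2 places 19.7 Mb apart shared the 26 bases in capitals.
B-cell library 37, plus strand, chrX:125220652-125220791: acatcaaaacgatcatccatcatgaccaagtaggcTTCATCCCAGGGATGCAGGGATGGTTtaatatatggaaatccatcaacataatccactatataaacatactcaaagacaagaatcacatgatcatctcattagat
B-cell library 36, minus strand, chrX:105554844-105554982: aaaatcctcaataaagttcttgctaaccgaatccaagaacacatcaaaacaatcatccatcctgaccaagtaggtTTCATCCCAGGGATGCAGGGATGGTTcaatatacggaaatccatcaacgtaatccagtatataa
In the chromosome 1 pair, from fibroblasts, the capitals again mark the 10 bases at the junction.
Fibroblast library 4, plus strand, chr1:24619299-24619412: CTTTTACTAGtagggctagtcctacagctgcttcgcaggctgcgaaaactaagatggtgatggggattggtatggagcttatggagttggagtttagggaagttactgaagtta
Fibroblast library 3, minus strand, chr1:24619899-24619966: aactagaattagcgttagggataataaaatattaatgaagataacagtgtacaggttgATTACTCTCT

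Unlabelled junctions made up a smaller part of B-cell than of fibroblast libraries. Library totals were 2918, 2850 and 878 junctions in B-cell libraries 14, 36 and 37, and 980, 769, 620 and 562 in fibroblast libraries 1 to 4. B-cell library 14 stood apart: the far end of its unlabelled prey was GG in 78.9% of cases against 3.33 to 11.01% elsewhere, and its median prey was 50 bases against 92 to 145.5. Without it, the differences between cell types below kept their direction. Of all these junctions, 389 were unlabelled in B cells, with 218 in library 36, 43 in library 37 and the rest in library 14, which is 4.39%, 7.65% and 4.90% of libraries 14, 36 and 37. In the fibroblast libraries they numbered 120, 96, 73 and 53, 342 in all, which is 12.2%, 12.5%, 11.8% and 9.43%. Every fibroblast library stood above every B-cell library. B-cell libraries averaged 5.64% ± 1.75 (SD, n = 3) and fibroblast libraries 11.5% ± 1.40 (SD, n = 4), a 2.03-fold ratio, with a two-sided exact permutation p of 0.0571, the smallest that 3 against 4 libraries allow, and 0.143 after Benjamini-Hochberg adjustment over the 5 measures compared between the groups. Counting 1 junction for each position and strand of a library widened the difference from -5.84 to -8.75 percentage points. That count left the difference in the share of other-chromosome junctions at -16.8 points, so the change came through the library totals. Counting 1 for each far end of the prey narrowed the difference in library share to -4.18 points, with a two-sided exact permutation p of 0.114. B-cell library 14 at 11.1% then stood above fibroblast library 4 at 10.3%. By this count library 14, with its GG far ends, rose from 4.39%, and library 36 from 7.65% to 9.81%. As percent of other-chromosome junctions, library 14 moved only from 39.9% to 40.5%. Whether lines of library 14 that share a far end come from 1 junction was not tested. Counting lines within 10 bp on 1 strand once gave -8.04 points, and there too the groups overlapped, with 16.04% in B-cell library 36 and 15.8% in fibroblast library 4 (two-sided exact permutation p = 0.114).

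Among junctions on other chromosomes alone, the unlabelled share was 39.9% (Wilson 95% interval 34.7 to 45.3), 37.9% (34.0 to 41.9) and 25.1% (19.2 to 32.1) in B-cell libraries 14, 36 and 37. In fibroblast libraries 1 to 4 it was 53.6% (47.0 to 59.99), 53.9% (46.6 to 61.1), 56.6% (48.0 to 64.8) and 40.5% (32.4 to 49.0). These intervals cover counting error only. The fibroblast libraries again lay above the B-cell libraries, fibroblast library 4 and B-cell library 14 being the nearest to each other. The mean was 34.3% ± 7.998 (SD, n = 3) against 51.1% ± 7.25 (SD, n = 4), with the same smallest exact permutation p of 0.0571, adjusted 0.143. With 1 junction for each far end these groups overlapped as well, B-cell library 14 at 40.5% and fibroblast library 4 at 40%, and the two-sided exact permutation p was 0.114. This second comparison also moved with chromosome 12, where the gene-labelled junctions of B cells included 242 with a switch region label. Without chromosome 12 the shares were 45.3%, 48.9% and 35.8% in B cells against 52.9%, 54.1%, 57.0% and 40% in fibroblasts, which overlapped, and the difference shrank from -16.8 to -7.65 points (two-sided exact permutation p = 0.286). As percent of the whole library the unlabelled junctions off chromosome 12 still did not overlap, with 4.11 to 6.98% in B cells and 8.90 to 12.1% in fibroblasts. Gene-labelled junctions off chromosome 12 showed an order of the same kind, with 4.97 to 7.74% of the library in B cells and 8.87 to 13.3% in fibroblasts, and a difference of -3.98 points against -5.88 for the unlabelled ones.

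**Figure D1:**
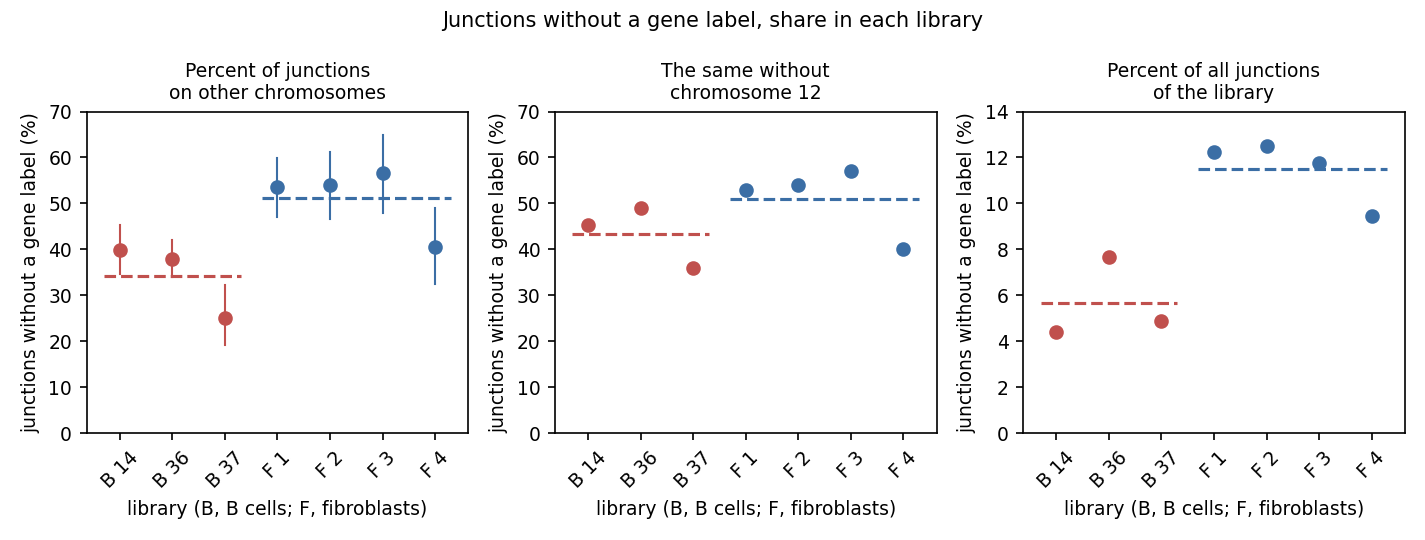
Unlabelled junctions in each library as percent of junctions on other chromosomes (left, with Wilson 95% intervals), the same without chromosome 12 (middle) and as percent of all junctions of the library (right); red points are B-cell libraries, blue points fibroblast libraries, and dashed lines group means. The groups do not overlap on the left and right, while without chromosome 12 fibroblast library 4 at 40% lies below B-cell libraries 14 and 36.

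Over the chromosomes, unlabelled junctions followed length. All 20 chromosomes other than 15 held at least 1, and over these 20 points, which differ in gene content and base composition too, counts and mm9 lengths had a Pearson r of 0.913 and a Spearman rho of 0.743 (0.859 and 0.700 without the short chromosome Y). In B cells r was 0.801 and in fibroblasts 0.863. Gene-labelled junctions, which pile up on chromosome 12 with 269 there, had an r of 0.158 over the same chromosomes. Their Spearman rho was 0.436, nearer to the 0.743 of unlabelled junctions. An r without chromosome 12 was not calculated for gene-labelled junctions. The gap in r therefore does not show that following length was particular to unlabelled junctions. The ratio of the observed count to the count in proportion to length was lowest on the X in B cells and on the Y in fibroblasts.

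Chromosome 12 stood highest in B cells, with 32 junctions, 1.73 times its share by length, and 11 followed at 1.24. In fibroblasts it held 15 junctions. Of the 32, 13 lay within 1 Mb of a switch label, and without those 13 the ratio was 1.06. Chromosome X had 13 junctions in B cells, 0.512 times its share, and 22 in fibroblasts, 0.985 times. By library it held 1, 10 and 2 of the junctions of B-cell libraries 14, 36 and 37, or 0.781%, 4.59% and 4.65%, and 9, 5, 6 and 2 in fibroblast libraries 1 to 4, or 3.77 to 8.22%, so that the groups overlapped. The low B-cell ratio rested in part on library 14, and was 0.704 without it and 0.269 without library 36. In fibroblasts the highest ratio was 1.36 on chromosome 13, with 22 junctions. There the lowest was 0 on chromosome Y, then 0.671 on chromosome 4 with 14, and the 2 junctions on Y were both from B cells. Chromosome Y makes up 0.623% of the length compared, so few junctions are expected there and 0 against 2 cannot separate the groups. With limma on log2(percent of the library's unlabelled junctions + 0.5) over the 18 chromosomes with at least 20 junctions, 0 passed an adjusted p of 0.05 between the groups, so that the share called was 0%. The smallest adjusted p was 0.861, and 0 chromosomes had an unadjusted p under 0.05. On that scale chromosome 12 was 1.57 higher in B cells (SE 0.878) and X differed by -0.99 (SE 0.562), each with an adjusted p of 0.861 by limma. No library was dropped from this fit, and a chromosome with few junctions gives a log2 value of low precision.

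**Figure D2:**
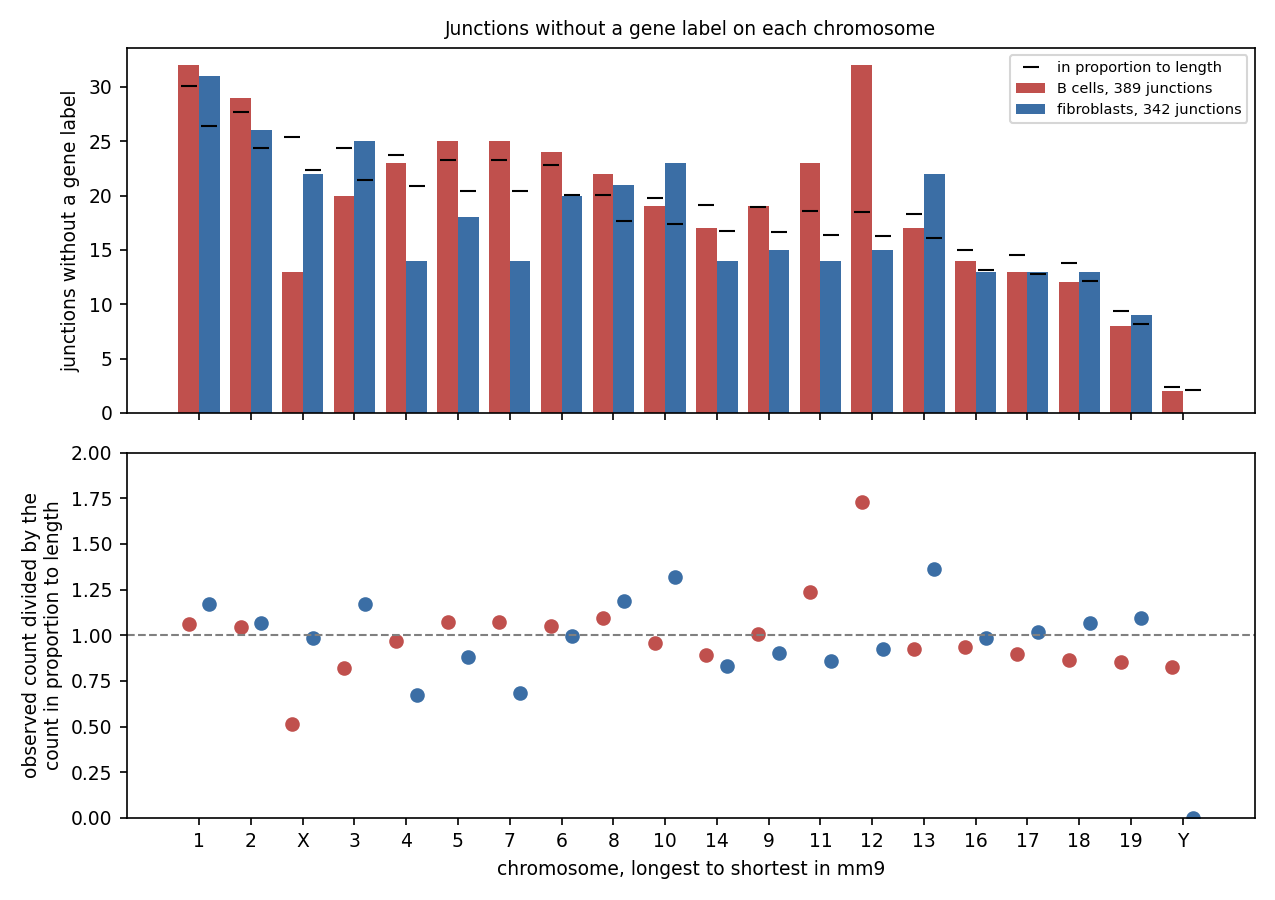
Top, unlabelled junctions per chromosome in B cells (red) and fibroblasts (blue), pooled over the libraries of a group, with black dashes at the count in proportion to length; bottom, the ratio of the count to that expectation, with 1 as a dashed line. Chromosome 12 in B cells stands at 1.73 and X in B cells at 0.512, and the fibroblast points lie between 0.671 and 1.36 apart from Y at 0.

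Along the chromosomes, the mean share of junctions toward the distal end was higher in B cells, by a difference that did not reach 0.05 in any of the settings below. Mouse chromosomes carry the centromere at the proximal end, where coordinates start. The share in the last of 3 equal parts of the chromosome was 50.8%, 37.2% and 51.2% in B-cell libraries 14, 36 and 37, and 30.8%, 35.4%, 26.03% and 28.3% in fibroblast libraries 1 to 4. The groups did not overlap, though B-cell library 36 and fibroblast library 2 were neighbours. Means were 46.4% ± 7.98 (SD, n = 3) and 30.1% ± 4.03 (SD, n = 4), with a two-sided exact permutation p of 0.0571, the smallest possible. IgH lies at the distal end of chromosome 12, and without that chromosome B-cell library 36 had 34.7%, below fibroblast library 2 at 35.5%, with a difference of 14.3 points in place of 16.2 and a two-sided exact permutation p of 0.114. With the boundary at the middle of the chromosome, the measure planned as the main one, the shares were 61.7%, 52.8% and 67.4% against 44.2%, 52.1%, 42.5% and 54.7%. These overlapped, with a difference of 12.3 points and a two-sided exact permutation p of 0.114, adjusted 0.190. Pooled over libraries, the proximal, middle and distal of the 3 parts held 24.7%, 32.1% and 43.2% of B-cell junctions and 37.7%, 31.6% and 30.7% of fibroblast junctions.

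Both strands were used about equally. Of the 731 junctions, 362 had the prey on the plus strand, 49.5%. The plus strand share was 48.4%, 44.95% and 48.8% in B-cell libraries 14, 36 and 37, and 55.0%, 47.9%, 47.9% and 64.2% in fibroblast libraries 1 to 4. The groups overlapped, fibroblast library 4 being the highest with a Wilson interval of 50.7 to 75.7, and the others had intervals that included equal use. Means were 47.4% ± 2.14 (SD, n = 3) and 53.8% ± 7.69 (SD, n = 4), with a two-sided exact permutation p of 0.343, also after adjustment. Gene-labelled junctions pooled had 51.5% on the plus strand.

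Near IgH, unlabelled junctions came from B cells alone. Within 1 Mb of a switch-labelled junction lay 13 of 389 B-cell junctions, 3.34%, with 3, 7 and 3 in libraries 14, 36 and 37. Of 342 fibroblast junctions 0 lay there. The limit for that 0 is 0.877%, which covers counting error of the pooled junctions only and holds no spread between libraries. The switch labels themselves were also all from B cells, 103 for S mu, 106 for S gamma 1, 30 for S epsilon and 3 for S alpha. IL-4 with anti-CD40 is known to direct switching to the gamma 1 and epsilon genes. Of the 13 unlabelled junctions, 10 were within 10 kb of a switch-labelled one, and 6 were on the plus strand, as were 110 of the 242 switch-labelled ones.

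The larger cluster held 7 junctions over 8224 bp, chr12:114658534-114666758, from all 3 B-cell libraries. S mu labels ran from 114661771 to 114664538, and the 7 unlabelled junctions lay on both sides of that range and none within it. IgH is transcribed along the minus strand, so a higher coordinate is upstream. Upstream lay 5, at 0.479, 1.49, 1.81, 1.93 and 2.22 kb from the nearest S mu-labelled junction, 1 from library 36, 3 from library 37 and 1 from library 14. The farthest of these is at the JH4 end printed above, and its junction bases read as coding sequence of that segment. The other 4 lie between it and the S mu labels, on the side of the intron that follows the joining segments and is known to hold the intronic enhancer and the start of the switch transcript. Downstream lay 2, both from library 36 on the minus strand at 114658534 and 114658622. By strand, the 7 were 2 plus and 5 minus.

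The smaller cluster held 3 junctions over 10070 bp, chr12:114567398-114577468, around S gamma 1 labels from 114572039 to 114577035. On the upstream side were 2 from library 36, at 0.179 and 0.433 kb on opposite strands, and on the downstream side 1 from library 14, at 4.64 kb. The other 3 unlabelled junctions near IgH were 28.3 kb from the S epsilon labels (library 14), 35.8 kb upstream of S mu (library 36) and 256 kb from S alpha (library 36). The label field thus left out junctions at the flanks of the switch regions, and the annotation the authors used for these labels is not given in the sources used here.

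**Figure D3:**
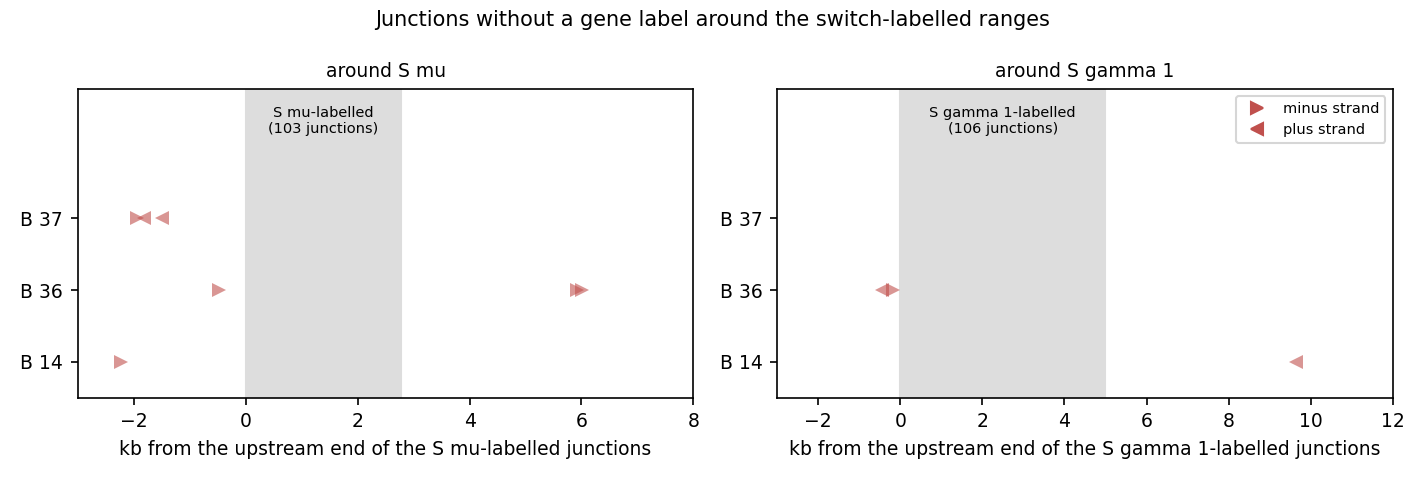
Unlabelled junctions of the B-cell libraries (rows) around S mu (left) and S gamma 1 (right), by distance in kb from the upstream end of the switch-labelled range, shaded; transcription runs left to right, and right-pointing triangles are minus strand. All 10 junctions of the 2 clusters fall outside the shaded ranges, 7 of them on the upstream side.

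At the kappa light chain locus on chromosome 6, the other antigen receptor locus with gene labels among these junctions (1 for the Ck edge, 1 for Jk2, 1 for Jk3), 3 unlabelled junctions of B-cell library 36 lay within 1 Mb and 0 of fibroblasts. The nearest, on the minus strand at 70675692, was 0.915 kb from the labelled Ck edge at 70676607 and on the side of Jk3, whose label was at 70673327. The others were 505 and 946 kb away. All 3 were from 1 library.

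Unlabelled junctions rarely fell at the same place in different libraries. Within 10 kb of an unlabelled junction of another library lay 27 of 731, 3.69%, and 18 of 684, 2.63%, without chromosome 12. Within 1 kb it was 14, within 100 kb 73 (9.99%) and within 1 Mb 301 (41.2%). By cell type 20 of 389 B-cell junctions, 5.14%, and 7 of 342 fibroblast junctions, 2.05%, had a neighbour within 10 kb, and off chromosome 12 the B-cell count was 11 of 357, 3.08%. Gene-labelled junctions had one in 300 of 998 cases, 30.1%, and off chromosome 12 in 56 of 729, 7.68%. These counts depend on how many junctions the libraries hold and are descriptions. Between libraries there were 25 pairs within 10 kb, 20 of them of B cells, 2 of fibroblasts and 3 of 1 each, and 16 of the 25 were on chromosome 12. The median distance from a B-cell junction was 3990 kb to the nearest in another B-cell library and 2391 kb to the nearest in fibroblasts. For a fibroblast junction it was 3034 kb to another fibroblast library and 2571 kb to B cells. By median the other cell type was thus the nearer in both, where a search covers all libraries of that type rather than those left after the junction's own.

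**Figure D4:**
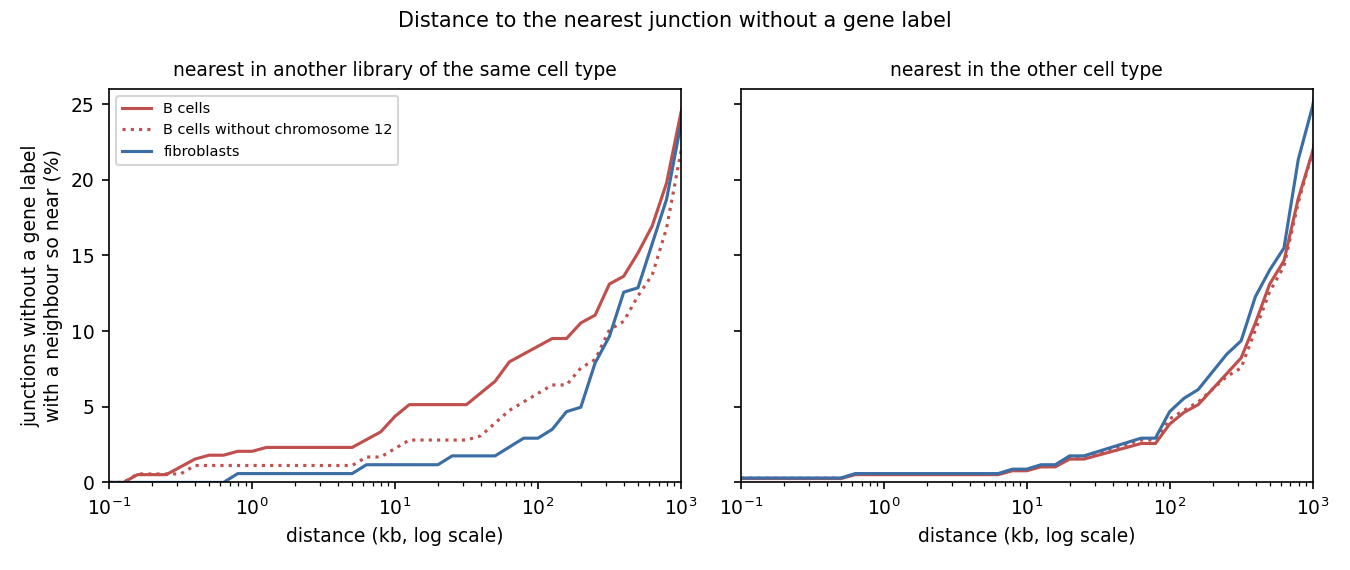
Percent of unlabelled junctions with another within the distance on the horizontal axis (kb, log scale), in another library of the same cell type (left) or in the other cell type (right). At 10 kb the same-cell-type curve of B cells stands at 4.37%, at 2.24% without chromosome 12, and that of fibroblasts at 1.17%.

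The closest pair between libraries was that on chromosome 17, printed above, whose junctions at 39983166 (fibroblast library 3) and 39983184 (B-cell library 14) were 18 bp apart on the minus strand. This is a place where mm9 holds a copy of the ribosomal RNA precursor gene, which cells carry in long arrays of near-identical repeats, so the copy that was joined is uncertain. The GC content of the 2 prey was 69.2% and 78.9%. Of the IgH-bait B-cell libraries, 23 and 19 had an unlabelled junction nearby too, at 39981753 on the plus strand and 39983038 on the minus strand.

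The next pair, 146 bp apart on chromosome X at 125220651 (library 37) and 125220797 (library 14), lay in sequence that reads as the reverse transcriptase part of LINE-1, the most abundant mobile element of the mouse genome. A further pair on X, at 105554358 (fibroblast library 2) and 105554982 (B-cell library 36), 624 bp apart on opposite strands, had LINE-1 sequence at its second junction, with the 26 bases shared by both places. Prey from such elements can have many near matches, and the position given is the aligner's choice.

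The 2 fibroblast libraries whose junctions came nearest to each other, 3 and 4, did so 668 bp apart at 24619298 and 24619966 of chromosome 1. Read on the complement, the prey are parts of the mitochondrial genes for ND4L and ND3, subunits of respiratory complex I that neighbour each other in mitochondrial DNA. The nuclear genome carries inserted copies of mitochondrial DNA, and chromosome 1 of mm9 holds such a copy by these alignments. Of the 16455 lines of the series 0 were placed on the mitochondrial genome itself, so from these tables a join to the nuclear copy and a join to mitochondrial DNA cannot be told apart.

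Of the 6 closest same-strand pairs the other 4 were 1 on chromosome 4, at 44981369 (library 36) and 44981739 (library 14), 370 bp apart, and 3 in the S mu flank, 287, 1454 and 1741 bp apart. Off chromosome 12, the remaining pairs from 2 libraries lay on chromosomes 18, 3, 8 and 7, with gaps of 5374 to 9014 bp. The other between-library pairs of chromosome 12 all joined junctions of the 2 IgH clusters, with gaps of 406 to 9816 bp. Within 1 library the picture was another: 9 same-strand pairs lay within 10 bp, 7 of them with the same far end, and 0 pairs lay within 3 bp. Whether the 2 lines of such a pair come from 1 molecule was not tested, and with lines within 10 bp merged the neighbour count was 27 as before.

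The prey of unlabelled junctions held less G and C than that of gene-labelled junctions. In B-cell libraries 14, 36 and 37 the mean GC content was 48.2%, 43.3% and 41.6% without a label and 51.1%, 51.6% and 51.1% with one. In fibroblast libraries 1 to 4 it was 38.6%, 42.6%, 40.8% and 42.7% against 46.1%, 45.6%, 45.1% and 45.4%. Unlabelled prey were lower in 7 of 7 libraries, with differences from -9.57 to -2.64 points. The mean difference was -5.45 points ± 2.91 (SD, n = 7), with a two-sided exact sign-flip permutation p of 0.0156, the smallest that 7 libraries allow, and 0.0781 after adjustment over the 5 measures compared within libraries, which misses 0.05. Genes are known to be richer in GC than the DNA between them. Without chromosome 12, whose switch repeats are GC-rich, the difference was -3.80 points.

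The other features of the join did not separate the 2 kinds beyond the spread between libraries. The median aligned prey was 50 to 145.5 bases long in unlabelled junctions over the libraries, with a mean difference of 2.71 bases from gene-labelled ones (two-sided exact sign-flip permutation p = 0.5). Bases inserted between bait and prey were found in 23.3% ± 7.72 (SD, n = 7) of unlabelled and 24.3% ± 7.63 (SD, n = 7) of gene-labelled junctions (two-sided exact sign-flip permutation p = 0.641). Microhomology, bases that both bait and prey could have supplied, could be read only in the fibroblast tables, because in the B-cell tables the prey starts after the bait. It was found in 33.9%, 43.0%, 34.7% and 28.8% of unlabelled junctions in fibroblast libraries 1 to 4, and the mean of 35.1% differed from that of gene-labelled junctions by -2.08 points (two-sided exact sign-flip permutation p = 0.75, in a design of 4 libraries that cannot reach 0.05). Each of these had an adjusted p of 0.938. Between cell types, the GC content of unlabelled prey in B cells was 44.3% ± 3.43 (SD, n = 3), against 41.2% ± 1.94 (SD, n = 4) for fibroblasts (two-sided exact permutation p = 0.229, adjusted 0.286), and without B-cell library 14 the difference fell from 3.15 to 1.23 points.

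A set of unlabelled junctions began inside an alternating repeat of C and A. Prey with at least 20 bases of this repeat made up 40 of 731 unlabelled junctions, 5.47%, on 16 chromosomes, 20 in B cells and 20 in fibroblasts, and 28 of 998 gene-labelled ones, 2.81%. By library there were 0, 13 and 7 in B-cell libraries 14, 36 and 37, and 1, 10, 5 and 4 in fibroblast libraries 1 to 4. In 33 of the 40 the repeat started within 10 bases of the junction. An example is shown with a prey from c-myc itself, since both hold the repeat, and the capitals mark its first 20 bases in the former and a 12-base stretch before it in the latter.
Fibroblast library 4, plus strand, chrX:36033960-36034021: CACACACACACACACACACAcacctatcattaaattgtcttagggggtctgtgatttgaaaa
c-myc, B-cell library 36, plus strand, chr15:61818880-61818967: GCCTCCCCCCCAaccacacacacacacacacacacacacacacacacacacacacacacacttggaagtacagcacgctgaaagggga
The second sequence is labelled Myc in the deposited tables, and its 12-base stretch was in the prey of 118 of 7848 chromosome 15 junctions.

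That same stretch stood on the bait side of the read, ahead of the prey or reaching a few bases into it, in 36 of the 731 unlabelled junctions, 4.92%. Of these 36, 32 had prey with the CA repeat. In the gene-labelled junctions it was 33 of 998, 3.31%, and 26 of the 33. The order differed by cell type, with 5.40% unlabelled and 2.36% gene-labelled in B cells, and 4.39% and 5.31% in fibroblasts. Among chromosome 15 junctions the stretch stood at that place in 12 of 7848. The stretch was picked as the commonest 12-base word around the junction of CA-repeat prey on other chromosomes, among words also present in chromosome 15 prey. That it goes with CA-repeat prey is therefore partly built into the choice and is no separate result. In the reads that hold it, the bait side ran along c-myc up to its CA repeat. The part aligned to the other chromosome began from there, in 32 of the 36 unlabelled cases with a CA repeat of its own. Of the unlabelled junctions with such a read 0, 14 and 7 were in B-cell libraries 14, 36 and 37 and 0, 9, 4 and 2 in fibroblast libraries 1 to 4. Whether the prey position of these 36 marks a join at the bait break was not tested. Leaving such reads out, the difference between B cells and fibroblasts in the library share was -5.81 points, close to the -5.84 with them, and the neighbour count stayed at 27.

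**Figure D5:**
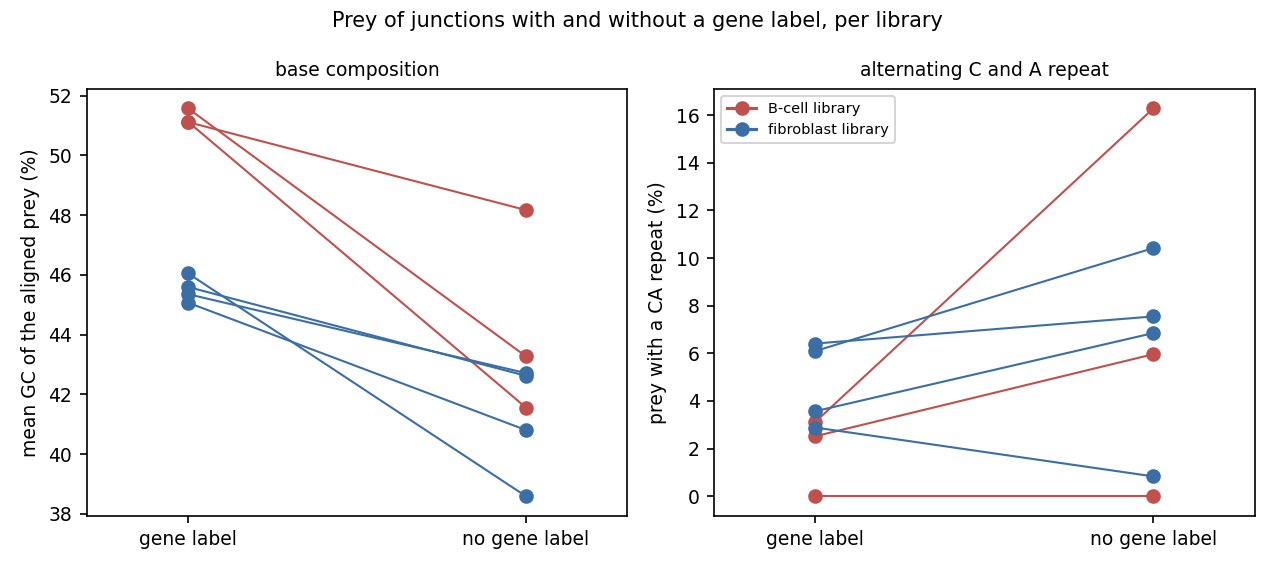
Mean GC content of the prey (left) and percent of prey with at least 20 bases of CA repeat (right) for gene-labelled and unlabelled junctions, 1 line per library, red for B cells and blue for fibroblasts. All 7 lines fall on the left, and on the right 5 rise, 1 falls and that of B-cell library 14 stays at 0.

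Repeats of other kinds were present too. Simple repeats of any kind, in which at least 40% of the 3-base words in some 24-base window were the same word, were found in 71 unlabelled junctions, 9.71%, and in 50 gene-labelled ones, 5.01%. At least 20 bases shared exactly with a prey on another chromosome were found in 53 unlabelled junctions, 7.25%, and in 39 gene-labelled ones, 3.91%, and 13 and 11 of these had no CA repeat. By cell type, simple repeats were in 8.23% of unlabelled and 3.54% of gene-labelled junctions in B cells, and 11.4% and 8.13% in fibroblasts. Shared bases were in 6.94% and 2.51% in B cells, and 7.60% and 6.88% in fibroblasts. The order was reversed in fibroblast library 1 for both measures and in B-cell library 14 for simple repeats. Members of dispersed families such as LINE-1 were not counted. An alignment score under 90 per 100 aligned bases was found in 27.1% and 20.04%.

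The prey of a few unlabelled junctions held sequence from gene starts. Prey of 10, 1.37%, matched RefSeq promoter windows of GRCm38.p6, which run from 250 bases before to 50 after a gene's start, by at least 5 shared words of 24 bases. The genes in B cells were Rc3h1, Wdr34, Bfsp1, Fhl3 and Spcs2, and in fibroblasts Vegfb, Gm39777, B9d2 and Gsg1l2. The last had 2 of the 10 junctions, 4 bp apart and with the same far end. The match was to the prey, so the junction itself can lie outside the window. For the 2 Gsg1l2 junctions it covered 45 of 186 and 45 of 182 words of the prey. Rc3h1 encodes roquin, which destabilises messenger RNAs in lymphocytes, and Vegfb a vascular growth factor. Of the gene-labelled junctions 7 of 998 matched, 0.701%, and in 5 of the 7 the label held the symbol of the matched gene.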

How the data were processed

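HTGTS junctions of 3 B-cell and 4 fibroblast libraries with the c-myc bait were used, grouped by the labels. The deposited tables give 1 line per junction, with position, strand, aligned bases, gene label and an alignment score that is the authors' own, per the file headers. The build is mm9, per the submitters' processing notes. Aligner, filters and gene annotation: not given in the sources used here. Starts of prey were read as counted from 0, since end minus start equals the aligned length. Junction positions are printed as deposited, and sequence ranges count from 1. Published mm9 chromosome lengths were entered by hand, and no junction exceeded them.

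All lines were counted as deposited, 562 to 2918 per library. The cell types were compared by exact permutation of library values, two-sided (smallest p 0.0571), and kinds of junction within libraries by exact sign-flips (smallest p 0.0156 over 7 libraries), each with Benjamini-Hochberg adjustment over 5 measures. Chromosomes were tested with limma 3.58.1 in R 4.3.3 on log2(percent + 0.5), with a minimum of 20 junctions. Scripts were tested on simulated data. Intervals are Wilson at 95%, and the limit for a count of 0 is 3 counts. Bait ends and inserted bases were found from 12-base words that at least 2% of reads held before the prey, and 17 of the 1729 junctions with no bait found were left out of that measure. Of the gene labels, 3 had been turned into dates by a spreadsheet and were kept as labels.

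Named were clusters of at least 3 junctions from at least 2 libraries chained by gaps of at most 10 kb, the 6 closest same-strand pairs from different libraries, the chromosomes with the highest and lowest ratio to length in each group, and junctions within 1 Mb of antigen receptor labels. The other pairs from different libraries, the CA repeat, the c-myc stretch and the promoter matches were chosen after their values were seen. The members, measures and lists were chosen with earlier results of these data known. Microhomology was planned over 7 libraries and could be used in 4. Alternatives covered the counting of lines, chromosome 12, prey near labelled junctions, prey of at least 50 bases, distance, boundary, pseudocount and leaving out each library.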

Additional observations from a re-analysis of the deposited data

Results flagged for a closer look

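The difference in strand use between unlabelled and gene-labelled junctions had opposite signs in the libraries of the 2 cell types, by values that hold counting error. The plus strand share of unlabelled minus that of gene-labelled junctions was -7.52, -5.47 and -2.73 points in B-cell libraries 14, 36 and 37, and 1.15, 2.79, 1.52 and 11.6 points in fibroblast libraries 1 to 4. All 3 B-cell libraries were thus below 0 and all 4 fibroblast libraries above. The means were -5.24 and 4.26 points, and their difference of -9.50 points had a two-sided exact permutation p of 0.0571, the smallest that 3 against 4 libraries allow, and was 1 of 4 such differences looked at. The fibroblast mean rested largely on library 4, without which it was 1.82 points and the difference -7.06. With each library left out in turn the difference ranged from -10.8 to -7.06 points. That the group means then stay on opposite sides of 0 follows from the signs of the single libraries and adds nothing. In the B-cell libraries this was 44.95 to 48.8% plus strand among unlabelled and 50.4 to 56.0% among gene-labelled junctions.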

How the results depend on the processing

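No paired analysis was possible because the c-myc B-cell and fibroblast libraries share no replicate number. Of the differences between cell types, all 5 kept their direction under every alternative run. With 1 library left out they ranged from -20.4 to -12.2 points for the share of other-chromosome junctions, -6.84 to -5.21 for the share of the library, -8.29 to -2.88 for the plus strand, 8.88 to 16.2 for the share beyond the middle of the chromosome and 1.23 to 4.54 for GC content. The within-library GC difference stayed between -5.92 and -4.77 points with a library left out, and between -5.75 and -3.80 otherwise. Differences near 0 changed sign. The plus strand difference of 0.191 points became -1.45 without chromosome 12, -0.00893 with lines within 10 bp merged, and -1.71 to 1.48 with a library left out. That in inserted bases, -0.973, became 0.758 without chromosome 12 and -2.42 to 0.245 with a library left out, and that in microhomology, -2.08, ranged from -6.00 to 0.00708. Aligned length ranged from 0.0833 to 3.58 bases. The 27 junctions with a neighbour within 10 kb became 14 at 1 kb, 73 at 100 kb, 16 without those near a labelled junction and 15 with prey of at least 50 bases. No chromosome was called by limma under any alternative, with smallest adjusted p-values from 0.589 to 0.943. Counting 1 line per far end, merging lines within 10 bp and leaving out reads through the c-myc stretch were chosen after seeing the data. With 43 to 218 unlabelled junctions per library, single chromosomes hold too few for small differences to be seen.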
